A study of Mus musculus with 12 samples.

Results

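The livers in this series were examined here for the 41 enzymes of amino acid catabolism and one-carbon metabolism on a list of hepatic genes. The list is defined by gene function, matched from Ensembl identifiers to mouse symbols, and its rule uses no measured value. All 41 were found among the 16346 genes with deposited values, and all 41 passed the filter on low values (a mean normalized count of at least 10 over the 12 libraries), which 12366 genes passed. The study compared liver RNA from control mice (Med13fl/fl) and mice labelled MED13-LKO, in which the floxed Med13 gene is deleted by a Cre recombinase driven by the albumin promoter, that is, in hepatocytes. All mice were C57BL6J by the labels and 12 weeks old. Within each genotype 1 group was fasted overnight for 16 h, and the other groups were then given normal chow for 4 h with drinking water that contained 30% sucrose or 30% fructose. There were 2 libraries in each of the 6 groups, 12 in all. Both genotypes carry the floxed alleles, and the labels give no sex and do not tie the libraries to individual animals, so the spread between libraries may be partly technical. The fed mice were killed later in the day than the fasted mice, so feeding and time of day cannot be told apart.

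Liver takes up most of the amino acids that reach it from the gut and, in fasting, from muscle. Its catabolic enzymes remove the amino group, mostly by transamination, and pass the carbon skeleton to gluconeogenesis, ketogenesis or the citric acid cycle, while the nitrogen enters the urea cycle. Several of these enzymes, with tyrosine aminotransferase, tryptophan dioxygenase and serine dehydratase as the classical cases, are controlled by glucocorticoids, glucagon and insulin and are made at higher levels in fasting. MED13 is the subunit that joins the kinase module to the core of the Mediator complex, the bridge between transcription factors and RNA polymerase II.

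The sum of normalized counts was 21062211 to 24152885 in the 6 control libraries and 17309215 to 18738563 in the 6 libraries labelled MED13-LKO, without overlap. Med13 RNA itself was not lower under the knockout label: its normalized counts were 578 to 796 in control libraries and 646 to 1055 in libraries labelled MED13-LKO (log2 fold change, labelled MED13-LKO against control over the 3 diets, 0.22 ± 0.11; limma, adjusted p = 0.202). Values over a whole gene do not check the removal of single exons, and the groups are therefore called "labelled MED13-LKO" throughout. In the paper, immunoblots of liver nuclear protein showed MED13 and MED12 almost absent from MED13-LKO mice. Protein was not measured in these libraries. The tissue label was checked with defining markers: all 7 hepatocyte markers were present, with summed normalized counts of 2556000 to 3200000 in control libraries and 1944000 to 2346000 in libraries labelled MED13-LKO. These are whole-tissue values, in which fewer cells of a type and less RNA per cell cannot be told apart.

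As a share of all normalized counts, the 41 enzymes were highest in the fasted control livers, at 3.11% and 3.12%. The share was 1.91% to 2.33% in the 4 control libraries fed sugar. It was 2.68% and 2.25% in the fasted libraries labelled MED13-LKO and 1.90% to 2.23% in the fed ones, so only the fasted control livers stood clear of every other group. The map of the 41 enzymes over the 12 libraries gives the values gene by gene.

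**Figure D1:**
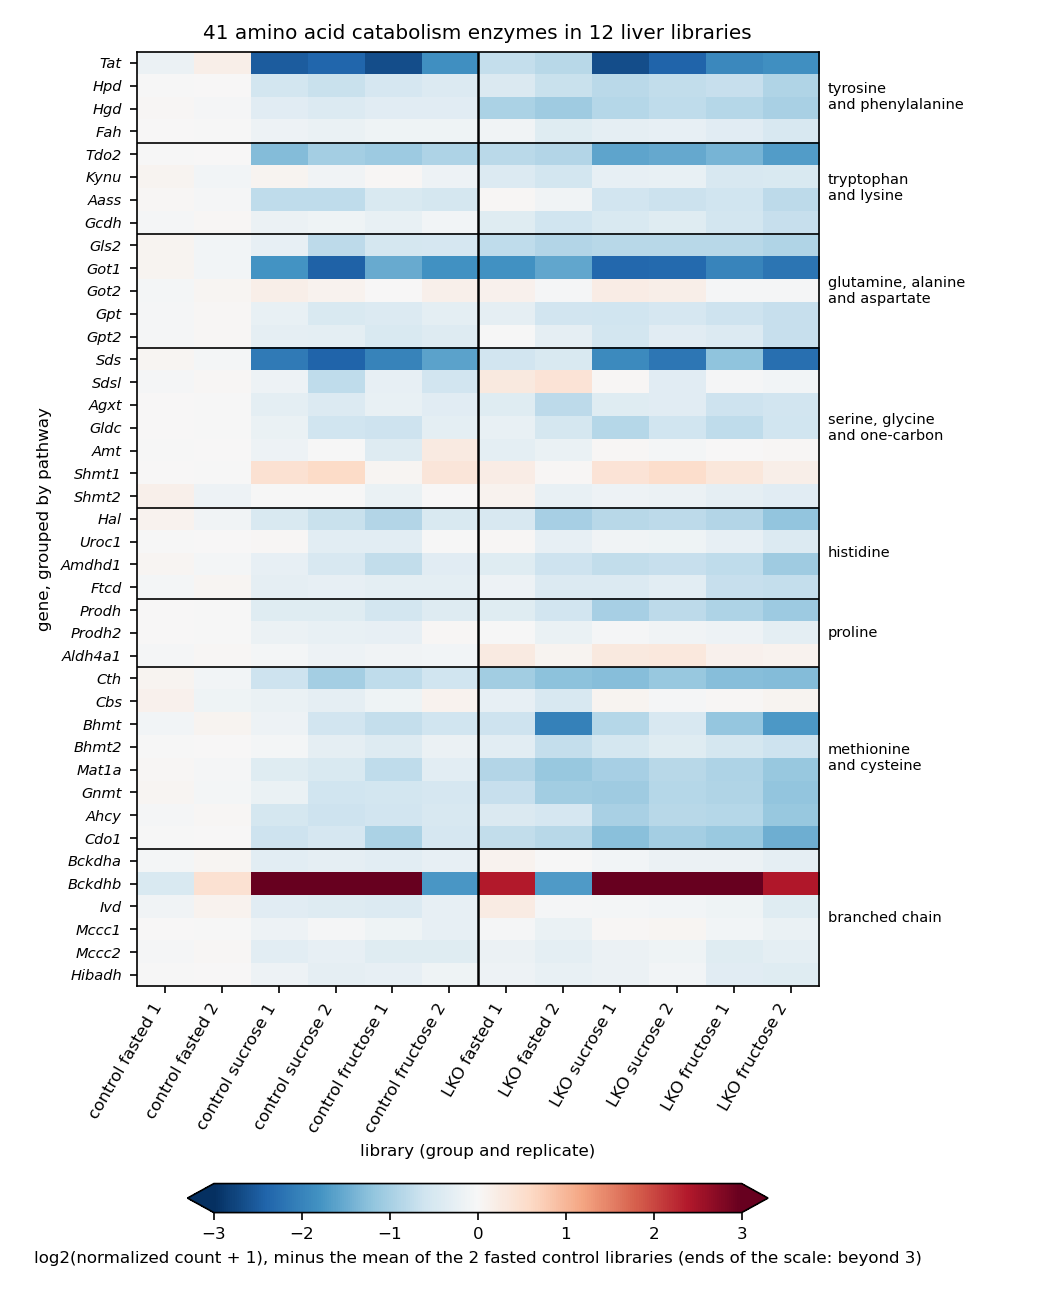
Level of each of the 41 enzymes (rows, grouped by pathway) in each of the 12 libraries (columns), as log2(normalized count + 1) minus the mean of the 2 fasted control libraries; blue is lower and red is higher, and values beyond 3 take the end colour. Tat, Sds and Got1 are the darkest blue in the fed control libraries, the methionine and cysteine group other than Cbs is blue in all 6 libraries labelled MED13-LKO, and Bckdhb varies strongly between libraries of 1 group and reaches the red end colour.

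The first question was which of these enzymes changed when fasted control mice were fed chow with sugar. With sucrose, 10 of the 41 fell and 1 rose (limma on log2(normalized count + 1), Benjamini-Hochberg adjusted p under 0.05 over the 12366 genes), whereas 3.72% of all genes tested were called lower, 4.85% higher and 8.57% in either direction. The median log2 fold change of the 41 was -0.35, beside -0.02 for all genes. With fructose, 12 fell and none rose, where 2.81% of all genes were called lower, 2.79% higher and 5.6% either way, and the median was again -0.35. Both sugars were compared with the same 2 fasted libraries. In 32 of the 41 enzymes all 4 fed control libraries lay below both fasted ones, a pattern found in 18.1% of all genes, and Shmt1 alone lay above (16.5% of all genes). The fed and fasted values of Amt, Bckdhb, Cbs, Got2, Kynu, Prodh2, Shmt2 and Uroc1 overlapped. Rescaling all libraries to equal sums put the median log2 fold change of all genes at 0.11 with sucrose and 0.12 with fructose, and left 8 enzymes lower with sucrose and 5 with fructose. At that scale 273 of the 12366 genes were called lower with sucrose and 170 with fructose.

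Tyrosine and tryptophan breakdown held some of the largest falls. Tat, the aminotransferase that starts tyrosine breakdown, read 97464 and 123400 normalized counts in the fasted control libraries, 19333 and 20924 with sucrose and 17264 and 30692 with fructose. Every fed library was far below both fasted ones. The fall was 5.45-fold with sucrose (log2 fold change -2.45 ± 0.22 SE, limma adjusted p = 0.000396) and 4.76-fold with fructose (-2.25 ± 0.22, adjusted p = 0.00185). Hpd, the dioxygenase of the next step, fell by less, from 45505 and 46185 to 31314 and 29058 with sucrose (log2 fold change -0.60 ± 0.11) and to 32103 and 34335 with fructose (-0.47 ± 0.11). Hgd, which opens the homogentisate ring, fell with both sugars as well (-0.38 ± 0.08 and -0.34 ± 0.08), while Fah, the last enzyme of the path, was not called with either (-0.18 ± 0.09 and -0.13 ± 0.09).

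Tdo2, the dioxygenase that commits tryptophan to the kynurenine path, read 61628 and 63643 in fasted control livers. It read 25481 and 30926 with sucrose and 29545 and 33085 with fructose, all 4 values well under the fasted pair. The fall was 2.23-fold with sucrose (log2 fold change -1.16 ± 0.12, limma adjusted p = 0.000566) and the log2 fold change with fructose was -1.0 ± 0.12 (adjusted p = 0.00298). Kynu, which cleaves kynurenine further along that path, was not called (-0.01 ± 0.10 and -0.06 ± 0.10). Aass, the first enzyme of lysine breakdown, fell from 8743 and 8205 to 4998 and 5007 with sucrose and 6211 and 5924 with fructose (log2 fold changes -0.76 ± 0.09 and -0.48 ± 0.09, limma adjusted p = 0.000826 and 0.0132). Gcdh, the glutaryl-CoA dehydrogenase that acts later in lysine and tryptophan breakdown, was not called (-0.16 ± 0.09 and -0.16 ± 0.09).

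Among the enzymes that handle the amino groups of aspartate, alanine and glutamine, Got1, the cytosolic aspartate aminotransferase, changed most. It read 8213 and 7263 in the fasted control libraries, 2240 and 1435 with sucrose and 2716 and 2190 with fructose, with no overlap. The fall was 4.31-fold with sucrose (log2 fold change -2.11 ± 0.19, limma adjusted p = 0.000391) and 3.17-fold with fructose (-1.66 ± 0.19, adjusted p = 0.00247). Got2, the mitochondrial form, was not called (0.14 ± 0.09 and 0.09 ± 0.09), though 30.9% of its 31-base subsequences also occur in other genes.

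The alanine aminotransferases moved little in comparison. Gpt read 6204 and 6497 in fasted control livers, 5461 and 4661 with sucrose and 4765 and 5219 with fructose, and Gpt2, the mitochondrial form, read 8939 and 9446 fasted, 7601 and 7529 on sucrose and 6660 and 7081 on fructose. Neither was called with either sugar: for Gpt the log2 fold changes were -0.33 ± 0.11 and -0.35 ± 0.11 (both adjusted p = 0.105), and for Gpt2 they were -0.28 ± 0.12 and -0.42 ± 0.12 (adjusted p = 0.173 and 0.0674). In both genes, however, the fed libraries lay below the fasted pair. Gls2, the liver glutaminase, read 8600 and 7794 fasted, 6940 and 4773 on sucrose and 5694 and 5783 on fructose; its fold changes were -0.51 ± 0.14 and -0.51 ± 0.14 on the log2 scale, and both missed the threshold (adjusted p = 0.0546 and 0.0659).

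Sds, which turns serine into pyruvate and ammonia, read 5863 and 5327 in fasted control livers. With sucrose it read 1280 and 1059 and with fructose 1403 and 1838, so no fed value came near the fasted pair. The fall was 4.8-fold with sucrose (log2 fold change -2.26 ± 0.27, limma adjusted p = 0.00112) and 3.48-fold with fructose (-1.80 ± 0.27, adjusted p = 0.00679). Its related gene Sdsl was at 138 to 239 normalized counts in control libraries and was not called. Of the Sds sequence, 24.6% of 31-base subsequences are shared with other genes, and exons of Plbd2 and Gm15690 lie on the opposite strand; the strand setting of the counting is not stated in the sources used here. Shmt1, the cytosolic serine hydroxymethyltransferase that feeds the folate pool, was the 1 enzyme that rose, from 3707 and 3598 to 5011 and 5459 with sucrose (log2 fold change 0.52 ± 0.12, adjusted p = 0.0238). With fructose it read 3779 and 4735 and was not called (0.21 ± 0.12). Gldc and Amt of the glycine cleavage system, mitochondrial Shmt2 and the glyoxylate aminotransferase Agxt were not called with either sugar.

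The transsulfuration enzyme Cth, which splits cystathionine into cysteine, read 15626 and 13961 fasted, 9602 and 7243 on sucrose and 8687 and 9768 on fructose. All fed values were lower, with log2 fold changes of -0.82 ± 0.13 (limma adjusted p = 0.00501) and -0.68 ± 0.13 (adjusted p = 0.0183). Cbs, the enzyme just before it, read 5320 and 4509 fasted, 4258 and 4071 on sucrose and 4451 and 5274 on fructose, and was not called (-0.23 ± 0.12 and -0.02 ± 0.12). Ahcy, which clears S-adenosylhomocysteine, fell from 86438 and 90453 to 61103 and 57618 with sucrose (log2 fold change -0.58 ± 0.11) and 59594 and 63538 with fructose (-0.52 ± 0.11); 71.4% of its 31-base subsequences occur in other genes, 68.7% in Gm4737. Cdo1, which oxidizes cysteine, fell with fructose, from 38145 and 38267 to 19882 and 26871 (log2 fold change -0.72 ± 0.15, adjusted p = 0.0268).

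Gnmt, which methylates glycine with S-adenosylmethionine, read 50412 and 46809 fasted, 42254 and 32180 on sucrose and 33197 and 34234 on fructose. Bhmt, which remethylates homocysteine with betaine, read 79213 and 88844 fasted, 74994 and 56228 on sucrose and 50957 and 55779 on fructose. In both the fed values were under the fasted pair, but neither was called: the log2 fold changes were -0.40 ± 0.16 and -0.53 ± 0.16 for Gnmt (adjusted p = 0.154 and 0.0822) and -0.37 ± 0.37 and -0.65 ± 0.37 for Bhmt (adjusted p = 0.588 and 0.327). Mat1a, the S-adenosylmethionine synthetase of liver, and Bhmt2 were not called either. For Bhmt, 30.3% of 31-base subsequences also occur in other genes. Of the remaining groups, the histidine enzymes (Hal, Uroc1, Amdhd1 and Ftcd) had no call in control livers, the proline oxidase Prodh fell with fructose (-0.46 ± 0.11), and Bckdha of the branched chain dehydrogenase fell with sucrose (-0.30 ± 0.08) and the leucine enzyme Mccc2 with fructose (-0.36 ± 0.08).

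Not all of these calls rested on all libraries alike. With only the compared groups in the model, the sucrose calls were kept except that of Bckdha. With fructose only those of Sds and Got1 were kept, and those of Tat and Tdo2 were among the calls lost. The fits that follow use the spread of all groups. With each of the 4 compared libraries left out in turn, Tat, Tdo2, Sds and Got1 kept their calls with both sugars, and Aass and Cth with sucrose. Without fasted control replicate 1, fasted control replicate 2 or fructose replicate 1, the fructose call of Cth was lost (log2 fold change -0.60, -0.76 and -0.60, adjusted p = 0.104, 0.0707 and 0.0914). The calls of Hgd with both sugars and of Shmt1 with sucrose were lost without any 1 of the 4 libraries (adjusted p from 0.0592 to 0.158), at log2 fold changes of -0.31 to -0.42 for Hgd and 0.46 to 0.58 for Shmt1. The sucrose calls of Ahcy and Bckdha were also lost without any 1 library (adjusted p = 0.0559 to 0.103 and 0.0871 to 0.235), and that of Hpd without any but sucrose replicate 1 (0.0505 to 0.0715). With fructose the call of Mccc2 was lost without any 1 library (0.0535 to 0.19), that of Aass without either fasted library (0.0827 and 0.0647), and those of Hpd, Ahcy, Prodh and Cdo1 without either fasted library or fructose replicate 1 (0.0988 to 0.184).

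**Figure D2:**
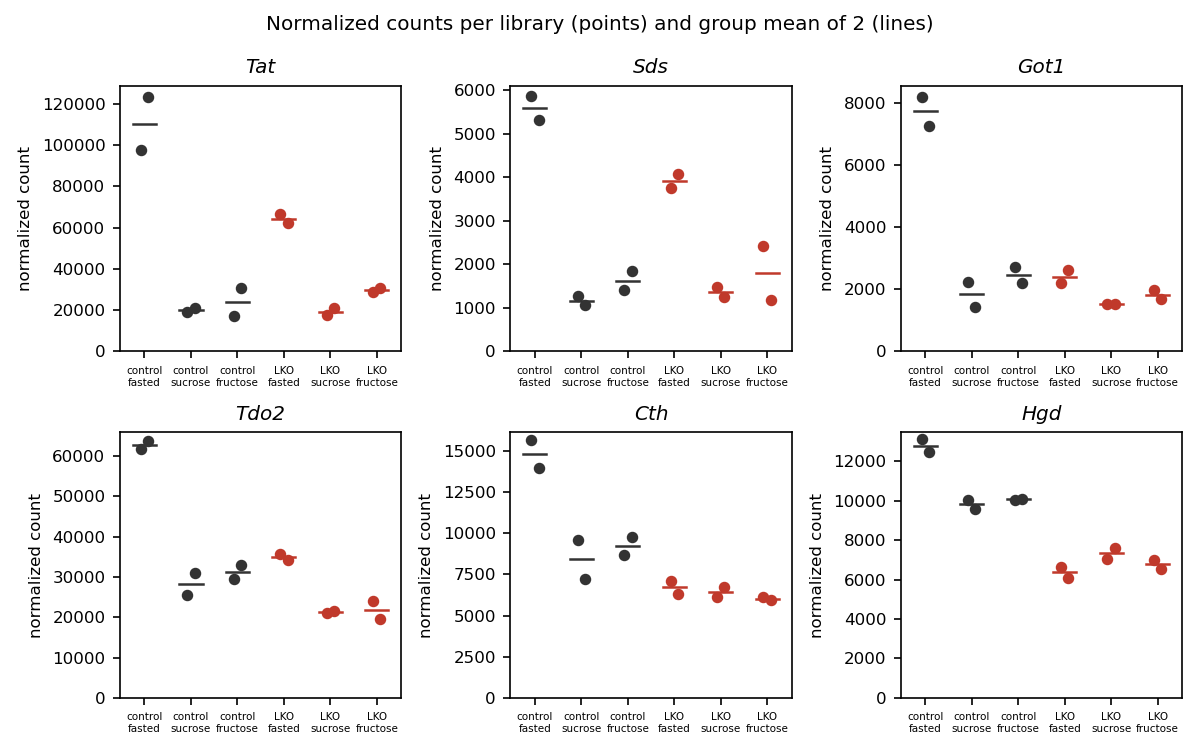
Normalized counts of Tat, Sds, Got1, Tdo2, Cth and Hgd in each library (points) with the mean of the 2 libraries of a group (line), control in dark grey and labelled MED13-LKO in red, on linear axes from 0. The fasted control pair is the highest of the 6 groups in every panel, and in Got1, Cth and Hgd the fasted libraries labelled MED13-LKO lie within or below the range of the fed control libraries.

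Sequence upstream of the start site is shown for Tat, Tdo2 and Got1, which were the members with the largest falls for which the RefSeq promoter table (GRCm38.p6) held a window. The table held windows for 33 of the 41 symbols; Gpt, Sds, Mat1a, Cth, Gls2, Sdsl, Cdo1 and Kynu were not matched. The 250 bases before the annotated start are given 5′ to 3′ on the strand of the gene, in lower case, with motif letters in capitals: Tat at chr8:109990186-109990435 on the plus strand, Tdo2 at chr3:81975729-81975978 and Got1 at chr19:43524606-43524855, both on the minus strand. The Tdo2 start of RefSeq lies inside the GENCODE M21 gene, which ends at 81976202.
Tat: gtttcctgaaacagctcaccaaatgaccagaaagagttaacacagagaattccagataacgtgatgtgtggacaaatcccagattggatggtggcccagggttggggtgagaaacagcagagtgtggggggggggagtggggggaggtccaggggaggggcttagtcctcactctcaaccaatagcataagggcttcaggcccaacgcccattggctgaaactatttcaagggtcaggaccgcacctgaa
Tdo2: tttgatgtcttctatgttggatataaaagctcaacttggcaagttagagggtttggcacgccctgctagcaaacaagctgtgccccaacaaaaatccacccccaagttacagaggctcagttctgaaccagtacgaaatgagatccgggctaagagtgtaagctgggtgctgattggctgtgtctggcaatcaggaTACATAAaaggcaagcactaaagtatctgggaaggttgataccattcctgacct
Got1: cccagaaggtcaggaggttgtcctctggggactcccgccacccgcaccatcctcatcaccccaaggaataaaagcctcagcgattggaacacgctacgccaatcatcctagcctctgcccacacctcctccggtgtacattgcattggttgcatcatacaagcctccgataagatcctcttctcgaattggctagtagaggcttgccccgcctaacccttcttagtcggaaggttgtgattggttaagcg

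In the windows of 250 bases before to 50 bases after the start, both strands were searched for 6 sets of letters. TTATGTA (bound by the PAR bZIP factors and NFIL3) was found in the window of Tdo2, as the reverse complement in capitals above, and in 2.63% of all 32851 windows. GTAAACA (FOXO) was found in Hibadh (3.65% of all windows), CACGTG (E-box) in Cbs and Mccc2 (7.15%), and TGTTCT (a glucocorticoid receptor site, in part) in Agxt and Bckdhb (19% of all windows). TGACGTC (CREB, 3.21%) and TTGCGCA (C/EBP, 2.02%) were in no member window. Tat, Got1 and Aass, which fell with feeding, held none of the 6 sets in this window.

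In the libraries labelled MED13-LKO the same feeding contrasts called fewer of the enzymes. With sucrose 4 fell (Tat, Tdo2, Sds and Aass) and none rose, where 3.48% of all genes were called lower, 2.23% higher and 5.71% either way, and the median log2 fold change of the 41 was -0.06. With fructose 7 fell, the same 4 with Ftcd, Prodh and Ahcy, where 3.58% of all genes were called lower, 2.94% higher and 6.53% either way, and the median was -0.19. All 4 fed libraries lay below both fasted ones in 15 enzymes (18.8% of all genes) and above them in 3, namely Amt, Bckdhb and Cbs (17.9% of all genes).

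Tat read 66664 and 62038 in the fasted libraries labelled MED13-LKO, 17430 and 20887 with sucrose and 28845 and 30809 with fructose. The fed values again lay far below the fasted ones, with log2 fold changes of -1.75 ± 0.22 (limma adjusted p = 0.00269) and -1.11 ± 0.22 (adjusted p = 0.0205). Sds read 3764 and 4076 fasted, 1488 and 1248 on sucrose and 2414 and 1173 on fructose, and fell by 2.87-fold with sucrose and 2.33-fold with fructose (-1.52 ± 0.27 and -1.22 ± 0.27 on the log2 scale, adjusted p = 0.0119 and 0.0293). The 2 fructose libraries of Sds differed by more than any other fed pair of that gene. Tdo2 read 35712 and 34274 fasted, 20987 and 21546 on sucrose and 23920 and 19618 on fructose, with log2 fold changes of -0.72 ± 0.12 and -0.69 ± 0.12 (adjusted p = 0.00916 and 0.0117). Aass read 8675 and 7864 fasted, 5703 and 5401 on sucrose and 5622 and 4941 on fructose (-0.57 ± 0.09 and -0.65 ± 0.09).

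Got1 and Cth did not pass in these libraries. Got1 read 2198 and 2610 fasted, 1512 and 1535 on sucrose and 1964 and 1683 on fructose, with log2 fold changes of -0.65 ± 0.19 and -0.40 ± 0.19 (limma adjusted p = 0.0801 and 0.246), although the fed libraries were all below the fasted ones. Cth read 7126 and 6286 fasted, 6130 and 6720 on sucrose and 6095 and 5963 on fructose, which overlapped between fasted and sucrose, with log2 fold changes of -0.06 ± 0.13 and -0.15 ± 0.13. Cbs read 4118 and 3483 fasted, 5167 and 4758 on sucrose and 5041 and 5179 on fructose, higher in every fed library, with log2 fold changes of 0.39 ± 0.12 and 0.43 ± 0.12 (adjusted p = 0.0833 and 0.0539).

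Gls2, Gpt, Gpt2, Gnmt and Bhmt had no call in either contrast of the libraries labelled MED13-LKO. Gls2 read 4826 and 4464 fasted, 4563 and 4605 on sucrose and 4599 and 4362 on fructose (-0.02 ± 0.14 and -0.05 ± 0.14 on the log2 scale). Gpt read 5291 and 4254 fasted, 4212 and 4484 on sucrose and 4111 and 3900 on fructose (-0.13 ± 0.11 and -0.24 ± 0.11), and Gpt2 read 9140 and 7682 fasted, 6270 and 7298 on sucrose and 6874 and 5679 on fructose (-0.31 ± 0.12 and -0.42 ± 0.12). For Gpt2 the fed values were all under the fasted ones, as in control livers. Gnmt read 29949 and 23739 fasted, 23134 and 26815 on sucrose and 25873 and 21479 on fructose (-0.10 ± 0.16 and -0.18 ± 0.16). Bhmt read 54501 and 20516 fasted, 46428 and 59700 on sucrose and 37697 and 25457 on fructose, and its fasted pair differed more than any other pair of that gene, and its errors were wide (0.65 ± 0.37 and -0.11 ± 0.37).

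Under the knockout label Ahcy fell with fructose, from 65881 and 62247 to 49019 and 39997 (log2 fold change -0.53 ± 0.11, limma adjusted p = 0.0247), and read 44949 and 49924 with sucrose (-0.43 ± 0.11, adjusted p = 0.0533). Prodh, the proline oxidase, fell with fructose from 1912 and 1653 to 1299 and 1158 (-0.54 ± 0.11, adjusted p = 0.0201). Ftcd, the last enzyme of histidine breakdown, which hands its carbon to folate, fell from 7127 and 5915 to 4885 and 4810 (-0.42 ± 0.09, adjusted p = 0.0265). With fructose none of the 7 calls held in every fit that left out 1 of the 4 libraries: that of Tat was lost without any 1 of them (log2 fold change -1.06 to -1.16, adjusted p = 0.071 to 0.128), and the log2 fold change of Sds shrank to -0.70 (adjusted p = 0.141) without fructose replicate 2. The Sds call was also lost without either fasted library (adjusted p = 0.103 and 0.149), and that of Tdo2 without either fasted library or fructose replicate 2 (adjusted p = 0.0702, 0.0637 and 0.116). With sucrose the calls of Tdo2 and Sds were lost without any 1 library (adjusted p = 0.0518 to 0.107), and Tat kept its call throughout.

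Whether the response to feeding itself differed between the genotypes was tested as an interaction. None of the 41 was called with sucrose, with fructose or with both sugars pooled, where limma called 0.146%, 0.0243% and 0.0404% of all genes. At an unadjusted p under 0.05, 11, 8 and 11 of the 41 passed, beside 8.53%, 9.46% and 9.49% of all genes. The pooled interaction was above 0 in 35 of the 41 enzymes (85.4%), that is, the value in the libraries labelled MED13-LKO was less negative or more positive, beside 49.8% of all genes; its median was 0.16. Of the 38 enzymes with a feeding change below 0 in control libraries 34 had an interaction above 0 (89.5%), beside 66.4% of the 6398 genes below 0 there. The control feeding change is itself subtracted in the interaction, so a fall in control by itself favours a value above 0. The median control change was -0.34 in the enzymes and -0.01 in all genes, so neither share of all genes is for genes that fell as far. These shares therefore do not show a difference between the genotypes. Fasted and sucrose libraries lay apart in opposite directions in the 2 genotypes for 5 enzymes (5.13% of all genes), and fasted and fructose libraries for 0 (5.08%). The median feeding change of the 41 was -0.34 in control libraries and -0.11 in those labelled MED13-LKO, from separate libraries.

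The smallest p-values of the pooled interaction were those of Got1, Hgd and Cth. For Got1 the feeding response differed by 1.36 ± 0.23 on the log2 scale (95% interval 0.84 to 1.88, limma adjusted p = 0.131), for Hgd by 0.51 ± 0.10 (0.29 to 0.72, adjusted p = 0.15) and for Cth by 0.65 ± 0.16 (0.29 to 1.01, adjusted p = 0.257). In the plot of the feeding responses most members lie above the line of equal responses, and Tat, Sds, Tdo2 and Got1 lie below 0 on both axes. For Tat the difference was 0.92 ± 0.27 (interval 0.31 to 1.53), for Cbs 0.54 ± 0.14 (0.22 to 0.85), for Gls2 0.48 ± 0.17 (0.09 to 0.86), for Tdo2 0.38 ± 0.15 (0.05 to 0.70) and for Sds 0.66 ± 0.33 (-0.08 to 1.40). The intervals of Bhmt (-0.23 to 1.80), Gnmt (-0.10 to 0.75), Gpt (-0.16 to 0.47) and Gpt2 (-0.34 to 0.30) spanned 0. In data simulated at this size, changes of 1 on the log2 scale were recovered for 35.5% of genes in the sucrose interaction, so a call missed here does not show equal responses.

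**Figure D3:**
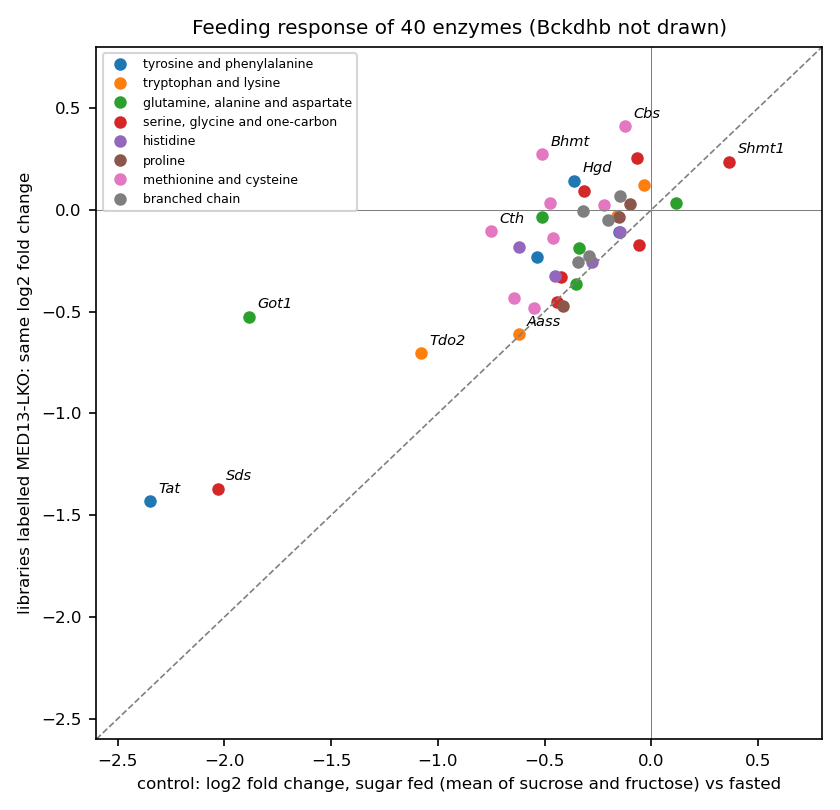
Log2 fold change of sugar-fed (mean of sucrose and fructose) against fasted libraries for 40 enzymes, control on the horizontal axis and labelled MED13-LKO on the vertical axis, coloured by pathway; Bckdhb is not drawn because its values vary too much between libraries. The dashed line marks equal responses, and most points, Got1 furthest, lie above it.

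Over both genotypes together, 21 of the 41 were lower in the fed libraries and 2 were higher, with a median of -0.26, where 11% of all genes were called lower, 10.7% higher and 21.8% either way. Tat (-1.89 ± 0.14), Sds (-1.70 ± 0.17), Got1 (-1.20 ± 0.12), Tdo2 (-0.89 ± 0.07) and Aass (-0.62 ± 0.05) had the smallest limma p-values. The others that fell were Hpd, Gls2, Sdsl, Gpt, Gpt2, Hal, Amdhd1, Ftcd, Prodh, Cth, Ahcy, Cdo1, Gldc, Bckdha, Ivd and Mccc2. By pathway, 4 of 5 enzymes of glutamine, alanine and aspartate fell (Got2 did not pass), 3 of 4 of histidine, 3 of 8 of methionine and cysteine and 3 of 6 of the branched chain group. The histidine calls (Hal, Amdhd1 and Ftcd) and those of Ivd, Mccc2, Sdsl and Gldc were each lost without at least 1 library. Gpt (-0.26 ± 0.07, adjusted p = 0.0234), Gpt2 (-0.36 ± 0.07, adjusted p = 0.00654) and Gls2 (-0.27 ± 0.09, adjusted p = 0.0491) passed here and in none of the contrasts within a genotype. The call of Gls2 was lost without any 1 of 10 libraries, all but the 2 control libraries fed sucrose (adjusted p = 0.0596 to 0.159), and that of Gpt without either fasted control library, fasted labelled MED13-LKO replicate 1 or sucrose labelled MED13-LKO replicate 1 (adjusted p = 0.0513 to 0.0989). With equal sums of counts 13 of the 23 calls were kept, and Got2 was added as higher. Of all 12366 genes, 712 were called lower and 2361 higher at that scale. All falls of the histidine and branched chain groups were among the calls lost, with those of Gpt, Gldc, Sdsl and Gls2. All 7 hepatocyte markers were below 0 in this contrast as well, 1 of them called, with a median of -0.25. Their sum ran from 3140000 to 3200000 in fasted and 2556000 to 2873000 in fed control libraries, and was 2346000 in both fasted and 1944000 to 2180000 in fed libraries labelled MED13-LKO, and its part in the enzyme results was not tested.

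Shmt1 and Bckdhb were the 2 that rose. Shmt1 changed by 0.30 ± 0.07 on the log2 scale, and its call was lost without fasted control replicate 2 or fasted labelled MED13-LKO replicate 2 (adjusted p = 0.0614 and 0.0707). Bckdhb, the second subunit of the branched chain dehydrogenase, read 12.4 and 24.1 in fasted control libraries, 246 and 463 on sucrose and 181 and 4.5 on fructose. Under the knockout label it read 95 and 4.64 fasted, 698 and 644 on sucrose and 359 and 95.6 on fructose. Replicates of 1 group differed widely, and its partner Bckdha, the other subunit, stayed between 3372 and 4544 in all 12 libraries. For Bckdha, however, 54.6% of 31-base subsequences also occur in other genes, and exons of B3gnt8 lie on the opposite strand. The Bckdhb log2 fold change was 3.21 ± 0.95 (limma adjusted p = 0.0371), and the call was lost without any 1 of the following 8 libraries: both fasted control, both sucrose control, both sucrose labelled MED13-LKO, fructose labelled MED13-LKO replicate 1 and fasted labelled MED13-LKO replicate 2. The fold change dropped to 2.19 (adjusted p = 0.159) without the last of these.

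Sucrose and fructose were also compared with each other. In neither genotype was any of the 41 called, beside 0.0404% of all genes in each; at an unadjusted p under 0.05, 3 and 6 of the 41 passed, beside 8.58% and 7.69% of all genes. In control livers the smallest p-values were those of Aass (0.28 ± 0.09, fructose against sucrose, 95% interval 0.09 to 0.47), Shmt1 (-0.31 ± 0.12, -0.56 to -0.05) and Got1 (0.44 ± 0.19, 0.02 to 0.87). Under the knockout label the first were Ftcd (-0.33 ± 0.09, -0.54 to -0.13), Hibadh (-0.22 ± 0.07, -0.39 to -0.06) and Tat (0.64 ± 0.22, 0.14 to 1.14). In control livers the interval was -0.30 to 0.69 for Tat, -0.14 to 1.07 for Sds, -0.11 to 0.42 for Tdo2 and -0.15 to 0.44 for Cth, so differences between the sugars within these intervals could not be told from 0 at 2 libraries a group.

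The genotype comparison asked which enzymes differed between the labels within each diet. In the fasted state 17 of the 41 were lower in the libraries labelled MED13-LKO and none was higher, where 4.86% of all genes were called lower, 4.12% higher and 8.98% either way; the median log2 fold change was -0.42. With sucrose 2 were lower and 1 higher (3.33% and 2.7% of all genes, 6.03% either way; median -0.14). With fructose 8 were lower and none higher (3.95% of all genes lower, 3.74% higher, 7.69% either way; median -0.28). Averaged over the 3 diets 22 were lower and 1 higher, with a median of -0.26, where 13.2% of all genes were called lower, 12.1% higher and 25.3% either way. In 17 enzymes both libraries labelled MED13-LKO lay below both control libraries in each of the 3 diets (9.82% of all genes), and Aldh4a1 alone lay above (8.27%). The fasted control libraries enter both this comparison and the feeding contrasts of control livers.

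These directions depend on the scale. The deposited normalization leaves the median of all genes at 0.01 or less between the genotypes, while rescaling to equal sums of counts puts it at 0.28 to 0.35 on the log2 scale. With equal sums, 7 of the 41 were lower and 7 higher after the fast, 0 and 10 on sucrose, 1 and 7 on fructose, and 8 and 15 averaged over diets. Of all 12366 genes, 233 were then called lower and 3914 higher after the fast, and 170 and 2072 on sucrose. On fructose these numbers were 227 and 3238, and averaged over diets 405 and 7109. The median of the enzymes minus that of all genes was -0.43 in the fasted state and -0.27 averaged over diets under both scalings. Rescaling multiplies each library by 1 constant, which moves both medians by nearly the same amount. The match between the scalings was therefore fixed in advance and is no separate result. Markers of cell types moved with the label as well. Of the 7 hepatocyte markers, 6 were lower averaged over diets, with a median of -0.44. Of 6 Kupffer cell markers 2 were higher, Marco and Cd5l, and the list summed to 2972 to 4147 in control libraries and 4031 to 5360 in libraries labelled MED13-LKO. Of 5 sinusoidal endothelium markers 3 were higher, of 6 stellate cell and matrix markers 2 were lower, and of the few tested for cholangiocytes, lymphocytes and neutrophils 1 of 3 was lower, 1 of 1 higher and 0 of 1 called. No listed marker found in the table was at 0 in all libraries of a genotype, and the part of these shifts in the enzyme results was not tested.

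Got1 differed most in the fasted state. It read 8213 and 7263 in control libraries and 2198 and 2610 in libraries labelled MED13-LKO, 3.22-fold lower (log2 fold change -1.69 ± 0.19, limma adjusted p = 0.000839), a value close to that of fed control livers. With sugar the difference was -0.23 ± 0.19 and -0.42 ± 0.19, and neither passed. Hgd read 13105 and 12449 against 6653 and 6100 after the fast, 10043 and 9583 against 7057 and 7594 on sucrose and 10050 and 10081 against 7014 and 6531 with fructose. It was lower in all 3 diets without overlap (-1.0 ± 0.08, -0.42 ± 0.08 and -0.57 ± 0.08 on the log2 scale; adjusted p = 6.78e-05, 0.0125 and 0.00231). The sucrose call of Hgd was lost without sucrose control replicate 1 or sucrose labelled MED13-LKO replicate 1 (adjusted p = 0.0745 and 0.121), and with equal sums it was among those lost.

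Tdo2 was 1.79-fold lower in the fasted state (log2 fold change -0.84 ± 0.12, limma adjusted p = 0.00281), and lower with fructose (-0.53 ± 0.12, adjusted p = 0.0272), while sucrose gave -0.40 ± 0.12 (adjusted p = 0.0853). Its fructose call was lost without control fructose replicate 2 or labelled MED13-LKO fructose replicate 2 (adjusted p = 0.0897 and 0.18). Tat, in contrast, was not called in any diet in the main model: the differences were -0.77 ± 0.22 (adjusted p = 0.0612), -0.08 ± 0.22 and 0.37 ± 0.22. With a replicate block, or with only the groups compared in the model, Tat was called in the fasted state. With equal sums of counts it was called higher with fructose, as were 3238 of all 12366 genes. The fasted Tat values of the 2 labels did not overlap, and the fed ones did. Sds was not called in the main model either (-0.51 ± 0.27, 0.23 ± 0.27 and 0.07 ± 0.27), with adjusted p = 0.273 in the fasted state. It was called there with only the groups compared in the model. Hpd (-0.55 ± 0.11), Kynu (-0.48 ± 0.10) and Gcdh (-0.49 ± 0.09) were lower in the fasted state, and Kynu (-0.42 ± 0.10) and Gcdh (-0.46 ± 0.09) with fructose too. The fasted calls of Hpd and Gcdh were lost without either fasted control library or fasted labelled MED13-LKO replicate 2 (adjusted p = 0.0721 to 0.103 and 0.0568 to 0.0962), and that of Kynu without fasted control replicate 1 or fasted labelled MED13-LKO replicate 2 (both adjusted p = 0.119). With fructose the call of Kynu was lost without any library but control replicate 2 (adjusted p = 0.121 to 0.146), and that of Gcdh without replicate 2 of either label (adjusted p = 0.0639 and 0.128).

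Of the methionine and cysteine group, the largest with 8 enzymes, 6 were lower in the fasted state, 0 with sucrose, 2 with fructose and 7 averaged over diets, with medians of -0.82, -0.35, -0.51 and -0.65. The calls with fructose were those of Cth and Ahcy. That of Ahcy was lost without control fructose replicate 1 or 2 or labelled MED13-LKO fructose replicate 2 (log2 fold change -0.52, -0.43 and -0.33). Of the 4 enzymes of tryptophan and lysine 3 were lower in the fasted state, 0 with sucrose, 3 with fructose and 3 averaged over diets. Cth read 15626 and 13961 in fasted control libraries and 7126 and 6286 in fasted libraries labelled MED13-LKO, 2.21-fold lower (log2 fold change -1.14 ± 0.13, limma adjusted p = 0.000917). With fructose it differed by -0.61 ± 0.13 (adjusted p = 0.0214), a call lost without control fructose replicate 2 or either labelled MED13-LKO fructose library (adjusted p = 0.0741 to 0.116), and with sucrose by -0.38 ± 0.13 (adjusted p = 0.131). Mat1a, which makes S-adenosylmethionine, read 80031 and 76768 against 42412 and 35535 in the fasted state (-1.01 ± 0.15, adjusted p = 0.00341), 60848 and 57186 against 39025 and 44128 with sucrose and 46362 and 62655 against 41165 and 35411 with fructose. Gnmt, which spends it, read 50412 and 46809 against 29949 and 23739 (-0.87 ± 0.16, adjusted p = 0.00911) in the fasted state, and differed by -0.57 ± 0.16 with sucrose and -0.52 ± 0.16 with fructose, where it was not called. In both enzymes the libraries labelled MED13-LKO lay below control in every diet on the deposited scale. The fasted call of Gnmt was lost without fasted control replicate 1 or fasted labelled MED13-LKO replicate 2 (adjusted p = 0.0686 and 0.0791).

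Ahcy (-0.47 ± 0.11), Cdo1 (-0.78 ± 0.15) and Bhmt2 (-0.53 ± 0.13) were lower in the fasted state as well. The calls of Ahcy and Cdo1 were lost without any 1 of the 4 fasted libraries (adjusted p = 0.0933 to 0.164 and 0.0538 to 0.0878), and that of Bhmt2 without any but fasted labelled MED13-LKO replicate 1 (0.131 to 0.209). Bhmt read 79213 and 88844 against 54501 and 20516, and its fasted difference of -1.33 ± 0.37 missed the threshold (limma adjusted p = 0.0549); averaged over diets it was -0.80 ± 0.21 (adjusted p = 0.0214), a call lost without fasted control replicate 2, sucrose control replicate 1, sucrose labelled MED13-LKO replicate 1 or fructose labelled MED13-LKO replicate 2 (adjusted p = 0.0531 to 0.0612). Cbs differed in sign between diets, with -0.37 ± 0.12 after the fast, 0.25 ± 0.12 on sucrose and 0.08 ± 0.12 with fructose, and no value passed (adjusted p = 0.0759, 0.245 and 0.747). Averaged over diets Cbs was at -0.01 ± 0.07 and Gpt2 at -0.14 ± 0.07, not called, and with equal sums of counts both were called higher (0.30 and 0.17), as were 7 other enzymes below 0 on the deposited scale (Aass, Amt, Got2, Hibadh, Mccc2, Prodh2 and Uroc1). At that scale 7109 of all 12366 genes were called higher in this comparison. Their median was 0.32 for all genes tested, above the values of Cbs and Gpt2.

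Of the enzymes that handle glutamine and alanine nitrogen, Gls2 read 8600 and 7794 against 4826 and 4464 in the fasted state (log2 fold change -0.82 ± 0.14, limma adjusted p = 0.00758) and differed by -0.33 ± 0.14 and -0.36 ± 0.14 with the sugars, not called. The fasted call was lost without fasted control replicate 1 or fasted labelled MED13-LKO replicate 2 (both adjusted p = 0.0615). Gpt was lower in the fasted state (-0.42 ± 0.11, adjusted p = 0.0477), a call lost without either fasted control library or fasted labelled MED13-LKO replicate 2 (adjusted p = 0.14 to 0.267). Gpt2 was not called in any diet (-0.13 ± 0.12, -0.16 ± 0.12 and -0.14 ± 0.12). Hal, the first enzyme of histidine breakdown, and Agxt were lower in the fasted state (-0.74 ± 0.19 and -0.57 ± 0.12), and Ftcd with fructose (-0.41 ± 0.09). The calls of Hal and Agxt were lost without any fasted library but labelled MED13-LKO replicate 1 (adjusted p = 0.0973 to 0.219 and 0.0871 to 0.0982), and that of Ftcd without any 1 of the 4 fructose libraries (0.0591 to 0.126).

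The proline enzymes moved apart. Prodh read 2480 and 2478 against 1912 and 1653 fasted, 1924 and 1935 against 1241 and 1443 with sucrose and 1689 and 1911 against 1299 and 1158 with fructose, and was lower in each diet (-0.48 ± 0.11, -0.53 ± 0.11 and -0.55 ± 0.11 on the log2 scale; limma adjusted p = 0.0239, 0.0203 and 0.0146). Each of these calls was lost in at least 2 of the 4 fits without 1 library (adjusted p up to 0.171). Each was also lost with equal sums of counts, and the fructose call with only the groups compared in the model. Aldh4a1, which completes proline breakdown to glutamate, read 6571 and 6095 against 8331 and 8411 with sucrose, where it was higher (0.40 ± 0.08, adjusted p = 0.0145), and differed by 0.18 ± 0.08 fasted and 0.20 ± 0.08 with fructose. Its sucrose call was lost without sucrose control replicate 2 or either sucrose library labelled MED13-LKO (adjusted p = 0.0875 to 0.0974), and averaged over diets it was 0.26 ± 0.04 (adjusted p = 0.00219). Of its 31-base subsequences, 31% are shared with Gm21969 on the same strand. The 6 branched chain enzymes had no genotype call in any diet, with medians of -0.03 fasted, 0.16 with sucrose and 0.05 with fructose. With equal sums of counts 2 of the 6 were called higher in the fasted state (Bckdha and Ivd), 5 on sucrose (all but Bckdhb) and 4 on fructose (Bckdha, Ivd, Mccc1 and Mccc2). Of all 12366 genes, 3914, 2072 and 3238 were called higher at that scale in these comparisons. Averaged over diets, the enzymes lower without a call in a single diet were Fah, Amdhd1, Gldc and Bhmt.

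**Figure D4:**
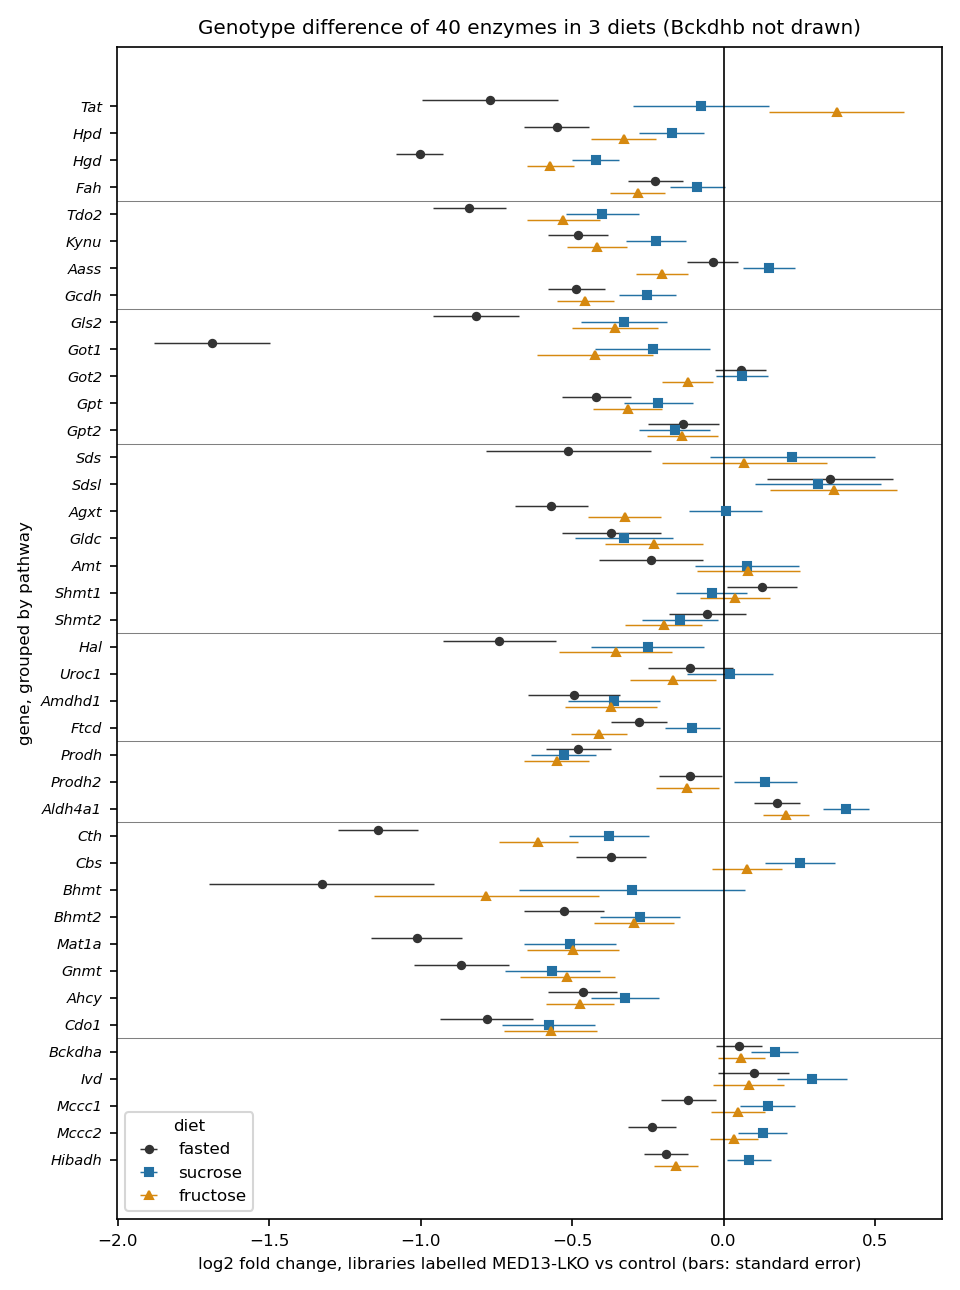
Log2 fold change of libraries labelled MED13-LKO against control for 40 enzymes in the fasted state (circles), with sucrose (squares) and with fructose (triangles), with standard errors from the joint limma fit; Bckdhb is not drawn. Most points lie left of 0, the fasted points of Got1, Bhmt, Cth, Mat1a and Hgd furthest, and the branched chain enzymes at the foot lie near 0; on the scale of equal sums the median of all genes lies at 0.28 to 0.35.

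Other genes of nitrogen handling were taken from lists made with results of these data known. Of the 6 urea cycle genes, 4 fell with feeding over both genotypes and Nags rose, and 5 were lower averaged over diets in the libraries labelled MED13-LKO, led by Asl (-0.71 ± 0.08), Cps1 (-0.69 ± 0.08) and Ass1 (-0.66 ± 0.11), while Nags was higher; 21.8% and 25.3% of all genes were called in these comparisons. Cps1, the entry enzyme of the cycle, read 131920 and 131931 in fasted control and 89346 and 69806 in fasted libraries labelled MED13-LKO. Of 10 amino acid transporters 6 fell with feeding, led by Slc7a2 (-1.60 ± 0.11), a carrier of arginine and lysine, and Slc38a2 (-1.44 ± 0.11), a carrier of neutral amino acids. Averaged over diets 4 transporters were lower and 1 higher in the libraries labelled MED13-LKO, with Slc38a3 (-1.0 ± 0.07), a glutamine carrier, at the head.

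Of 34 further amino acid enzymes tested, 9 fell and 2 rose with feeding, where 11% of all genes were called lower and 10.7% higher. Ppm1k, the phosphatase that activates the branched chain dehydrogenase, fell (-1.45 ± 0.14), and Bckdk, the kinase that inactivates it, rose (0.52 ± 0.10). Between the labels, 13 were lower and 2 higher averaged over diets, led by Asns (-2.50 ± 0.41), Csad (-1.14 ± 0.16) and Acmsd (-1.10 ± 0.14). Of all genes 13.2% were called lower and 12.1% higher there. The label differences of this list and of the urea cycle and transporter lists are given on the deposited scale only. Oat, ornithine aminotransferase, was 1 of the few genes with a called interaction: it read 27508 and 22253 in fasted control, 15200 and 15719 in sucrose control, 8922 and 8902 in fasted and 13796 and 13218 in sucrose libraries labelled MED13-LKO, and the sucrose response differed by 1.28 ± 0.15 (limma adjusted p = 0.0172). Slc25a15, the mitochondrial ornithine carrier, was called in the same contrast (0.70 ± 0.10, adjusted p = 0.0414). Of 14 regulators 8 fell and 2 rose with feeding over both genotypes, led by Cebpb (-1.38 ± 0.17), Foxo1 (-1.35 ± 0.14), Klf15 (-1.29 ± 0.12) and Ppargc1a (-1.10 ± 0.14), factors with known roles in fasting gluconeogenesis. The shares of all genes are those given above for feeding, 11% lower and 10.7% higher.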

How the data were processed

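Total RNA of liver was sequenced in 12 libraries. Per the submitters' processing notes, reads were trimmed with Trim Galore 0.6.5, transcript counts were estimated with kallisto 0.46.0 and normalized with DESeq2 1.24.0, and the build is mm10. The authors deposited normalized counts (a signal that is never negative and not whole) for 16346 genes; 16212 identifiers were matched to symbols through GENCODE M21, and 0 sample columns were unmapped. Raw counts per library were not used here, so no interval for counting error is given. Normalization to median ratios sets most genes equal between libraries, so a shift of all genes is not seen.

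From these values log2(normalized count + 1) was computed, and genes whose mean over all libraries reached 10 (12366 genes) were fitted with limma 3.58.1 (R 4.3.3; lmFit, contrasts.fit and eBayes with trend) in 1 model of 6 groups, with 6 residual degrees of freedom before moderation. P-values were adjusted by Benjamini-Hochberg over all genes of a comparison, and an adjusted p under 0.05 was called. Tests are two-sided. A fold change on log2(value + 1) understates the change of low genes. Values are means of 2 libraries with standard errors from the fit.

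Groups came from the sample titles and characteristics. The replicate numbers are in the titles. Across the 15 pairs of groups, deviations of same-numbered libraries from their group means correlated at -0.14 to 0.08, with 0 pairs over 0.1, so no block was used in the main model. The rule for the members is gene function alone, but the choice of this group and of the other lists was made with earlier results of these data known. The rule for printing values named Tat, Tdo2, Sds, Gls2, Gpt, Gpt2, Bhmt, Cbs, Cth and Gnmt, and in each comparison at most 5 further called members with the largest fold change (or the 3 smallest p where none was called). Part of the values under this rule are not printed, among them many in the comparisons averaged over genotypes or diets. Of each other list at most 4 called genes were named, and Med13 was the check of the labels.

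The model was tested on simulated data for 12366 genes with 200 changed. For sucrose against fasted control livers, 61.5% of changes of 1 on the log2 scale were recovered. Of changes of 2, 85.5% were recovered, and of changes of 0.5, 7%. Of the calls made there, 10.22% were false at changes of 1, 3.93% at 2 and 12.5% at 0.5. Between the labels on sucrose these false shares were 4.76%, 5.52% and 12.5%. The share of false calls was thus above the adjusted p threshold in part of these simulations. Sequence sharing is the percent of 31-base subsequences of a gene found in other genes of GENCODE M21. Python 3.11.15, pandas 2.3.3 and matplotlib 3.10.9 were used. The alternatives tried were a pseudocount of 0.1 or 10, no minimum mean, equal 75th percentiles, equal sums, a replicate block, only the groups compared, and leaving out each library.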

Additional observations from a re-analysis of the deposited data

Results flagged for a closer look

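In 5 enzymes both sucrose libraries moved one way from the fasted libraries in control livers and the other way in those labelled MED13-LKO, a pattern found in 5.13% of all genes; with fructose it was found in 0 enzymes and 5.08% of all genes. The difference of the sucrose response, labelled MED13-LKO minus control on the log2 scale, was 0.58 for Hgd (SE 0.11, limma adjusted p = 0.144), 0.62 for Cbs (SE 0.16, adjusted p = 0.328), 0.36 for Mccc2 (SE 0.11, adjusted p = 0.413), 0.26 for Mccc1 (SE 0.13, adjusted p = 0.614) and 0.23 for Aldh4a1 (SE 0.11, adjusted p = 0.609). None passed as an interaction, so the differences were tested and not called. Hgd fell with sucrose in control livers and read 6653 and 6100 fasted and 7057 and 7594 with sucrose in the libraries labelled MED13-LKO.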

How the results depend on the processing

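Of 1296 values of the named enzymes recomputed under alternatives other than leaving out a library, 1215 kept their direction and their side of the threshold. A further 19 changed sign but were called in neither case, 13 of them with equal sums of counts and 6 with equal 75th percentiles. Another 2 changed sign and were called higher with equal sums, averaged over diets, where Gpt2 was at 0.17 and Cbs at 0.30 on the log2 scale. The median of all genes was 0.32 in that comparison and scale. Of the rest, 50 kept their direction but lost their call and 10 gained a call. Of the 50, 21 were lost with equal sums and 22 with only the groups compared. With equal sums the number of enzymes called was 5 for fructose against fasted control livers, 14 for fed against fasted over both genotypes and 10 between the labels with sucrose. In the same order, 170, 712 and 170 of all 12366 genes were called lower there, and 696, 2361 and 2072 higher. With only the groups compared in the model it was 2 for fructose against fasted control livers, 3 for fructose against fasted livers labelled MED13-LKO and 0 between the labels with fructose, where fewer libraries estimate the spread. Without 1 library in turn, the number called ranged from 6 to 13 (sucrose) and 4 to 13 (fructose) in control livers, 1 to 7 and 0 to 9 in those labelled MED13-LKO, and 13 to 24 over both. Between the labels it ranged from 5 to 20 fasted, 0 to 5 with sucrose, 1 to 9 with fructose and 20 to 24 averaged over diets. It was 0 to 1 for each interaction and 0 in both comparisons of the sugars. The replicate numbers do not pair the libraries; with a replicate block the number called was 11 and 11 in control livers, 4 and 7 in those labelled MED13-LKO, 23 over both, and 15, 3, 7 and 22 between the labels. The crossed numbering of the fructose libraries labelled MED13-LKO, added after seeing the data, gave 9 between the labels with fructose. With 2 libraries a group, changes under 1 on the log2 scale were often missed in simulated data. In part of these simulations the share of false calls was above the adjusted p threshold.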
